A study of Mus musculus with 8 samples.

Results

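The transcripts of 8 genes of the AP-1 and immediate early group, Fos, Fosb, Fosl2, Jun, Junb, Jund, Atf3 and Ier2, were followed in regulatory T (Treg) cells and other CD4+ T cells (non-Treg) from mouse spleen. The 8 genes were taken by symbol from a table of 24016 genes, and each symbol matched a single row. The set was chosen with earlier results of these data known. Each of 4 groups held 2 libraries, A and B. The monoclonal groups, Treg and non-Treg, came from NOD.TCRab.FoxP3GFP.Rag-/- mice, whose rearranged T-cell receptor genes come from a nuclear transfer model and which lack Rag. The polyclonal groups, Treg and non-Treg, came from NOD.FoxP3GFP mice, in which receptors are rearranged in the usual way. All 4 groups share the NOD background and the FoxP3GFP reporter; the labels used here name Foxp3-positive and Foxp3-negative CD4+ cells and do not describe the sort. The receptor, the Rag genotype and the strain change together between monoclonal and polyclonal mice and cannot be told apart. Age is not given in the labels used here, nor whether A and B came from separate animals, so p-values measure the spread between these libraries, which may be technical.

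AP-1 is a dimer of basic leucine zipper proteins. Jun proteins (Jun, Junb, Jund) pair with each other or with Fos proteins (Fos, Fosb, Fosl2), whereas Fos proteins need a Jun or related partner to bind DNA. Most of these genes are immediate early genes: MAP kinases act on factors already present in the cell, and transcription starts without new protein synthesis. In T cells AP-1 is induced through the T-cell receptor and CD28 and binds many cytokine gene enhancers together with NFAT, while the same genes also respond to stress and to the handling of cells.

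The sequence just before the start site is shown as background for the members where it held a match to a searched motif. No link between the motifs and the levels was tested. RefSeq promoter windows of 300 bases (250 before to 50 after the start, GRCm38.p6) matched 7 of the 8 members, all but Ier2. Motifs were searched on both strands in the full windows. The CRE half-site TGACG occurred in the windows of Fos, Fosb, Junb and Atf3, and in 20.8% of 32851 windows of the same length. A variant of the AP-1 site, TGACATCA, occurred in the window of Jun and in 3.62% of all windows. TATAAA occurred in the windows of Fos and Junb, where the Junb match begins at the start site and lies outside the stretch shown, and in 13.6% of all windows. The whole CRE TGACGTCA (1.79% of all windows, each of which also holds TGACG), the canonical AP-1 site TGACTCA (5.20%) and the CArG box (1.63%) had no match in the 7 windows, and the windows of Fosl2 and Jund held none of the searched letters. The 150 bases before the start, 5′ to 3′ on the gene's strand, are given for the 5 genes with a match, with matches in capitals.
Fos, chr12:85473740-85473889, plus strand: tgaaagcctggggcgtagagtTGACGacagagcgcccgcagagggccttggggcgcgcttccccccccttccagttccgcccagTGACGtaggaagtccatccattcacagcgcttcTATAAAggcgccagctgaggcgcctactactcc
Fosb, chr7:19310046-19310195, minus strand: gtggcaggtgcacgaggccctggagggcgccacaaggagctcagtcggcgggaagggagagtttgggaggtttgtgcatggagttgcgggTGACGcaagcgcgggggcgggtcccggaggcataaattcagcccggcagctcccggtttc
Jun, chr4:95052223-95052372, minus strand: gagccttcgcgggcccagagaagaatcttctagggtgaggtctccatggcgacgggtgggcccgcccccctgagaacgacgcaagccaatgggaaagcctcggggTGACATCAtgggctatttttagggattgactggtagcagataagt
Junb, chr8:84978749-84978898, minus strand: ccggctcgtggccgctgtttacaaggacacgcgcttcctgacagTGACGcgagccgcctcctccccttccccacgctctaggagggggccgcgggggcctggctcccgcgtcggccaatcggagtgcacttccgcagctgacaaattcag
Atf3, chr1:191183334-191183483, minus strand: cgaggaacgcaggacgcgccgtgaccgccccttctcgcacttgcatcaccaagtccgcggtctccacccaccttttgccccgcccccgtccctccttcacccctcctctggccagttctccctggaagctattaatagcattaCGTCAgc
In these stretches TGACG starts 129 and 66 bases before the start of Fos, 60 before that of Fosb and 106 before that of Junb, TATAAA starts 33 before that of Fos, and TGACATCA starts 45 before that of Jun. In Atf3 the half-site lies on the other strand, read as CGTCA, 7 bases before the start.

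In the table (mm9 positions), Fos is represented by NM_010234 at chr12:86814851-86818219 on the plus strand, Fosb by NM_008036 at chr7:19888045-19895394 on the minus strand and Fosl2 by NM_008037 at chr5:32438845-32460212 on the plus strand. Jun is NM_010591 at chr4:94715727-94718913, minus strand, and Atf3 is NM_007498 at chr1:192994176-193007212, minus strand. Chromosome 8 carries 3 members: Junb (NM_008416, chr8:87500808-87502647, minus strand), Ier2 (NM_010499, chr8:87185230-87186751, minus strand) and Jund (NM_001286944, chr8:73221638-73224515, plus strand). Values are for the whole gene model, of 1519 (Ier2) to 5857 (Fosl2) bases.

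Levels are CPM, reads per 1000000 reads of the table, from 14076330 to 19722321 reads per library, a depth at which 3 reads are worth 0.152 to 0.213 CPM. Foxp3, the gene that defines Treg cells and is named in the reporter, was at 2281 to 2709 CPM over the 4 Treg libraries, at 405 and 319 CPM in the monoclonal non-Treg libraries and at 81.9 and 84.2 CPM in the polyclonal non-Treg libraries. A list of 8 T-cell markers summed to 3781 to 4445 CPM in the 4 monoclonal libraries and to 5067 to 6157 CPM in the 4 polyclonal ones, which do not overlap. Dendritic cell, class II, macrophage and neutrophil markers were higher in all monoclonal than in all polyclonal libraries. So were CD8 T-cell (12.1 to 19.8 against 5.68 to 7.71 CPM) and erythroid and platelet markers (37.0 to 95.5 against 7.62 to 18.7 CPM). B-cell, NK and plasma cell markers did not separate all libraries in this way. The 12 dendritic cell markers summed to 718 to 856 CPM for Treg and 2492 to 2645 CPM for non-Treg cells of the monoclonal strain, and 137.7 to 194 CPM for Treg and 146 to 152 CPM for non-Treg cells of the polyclonal strain, with Clec9a and Batf3 at 0 in both polyclonal Treg libraries. The 6 MHC class II genes summed to 4893 to 6575, 18911 to 21188, 82.1 to 111 and 189 to 239.7 CPM in the same order of groups. The 12 macrophage and monocyte markers in the table summed to 189 to 295, 437 to 494, 30.3 to 32.8 and 25.1 to 29.0 CPM, with Fcgr1 at 0 in both polyclonal Treg and Ms4a7 at 0 in both polyclonal non-Treg libraries. The 9 B-cell markers summed to 50.1 to 70.04, 249.3 to 308, 28.9 to 46.5 and 46.8 to 69.6 CPM, with Pax5 at 0 in both libraries of every group except monoclonal non-Treg. The 8 neutrophil markers in the table ranged more between libraries of a group: 260.3 to 1422, 84.2 to 477, 16.3 to 49.2 and 14.8 to 37.5 CPM, with library A above library B in all 4 groups. The 7 NK-cell markers summed to 44.5 to 46.98, 70.1 to 76.4, 21.4 to 21.95 and 50.9 to 55.2 CPM, and the 5 plasma cell markers in the table to 188 to 235, 148 to 166, 239.6 to 302 and 168 to 172 CPM. In sorted bulk cells, fewer cells of a type and less RNA per cell cannot be told apart.

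The Fos family was low in the polyclonal libraries. Fos, the founding member and a strong activator once paired with Jun, was at 264 and 259 CPM for Treg and 701 and 716 CPM for non-Treg cells of the monoclonal strain, and 22.7 and 31.3 CPM for Treg and 54.6 and 40.3 CPM for non-Treg cells of the polyclonal strain. Fosb, a close relative of Fos, was at 208 and 232, 923 and 1167, 19.3 and 12.9, and 31.1 and 26.3 CPM in the same order. For both genes the monoclonal non-Treg libraries were the highest and the polyclonal Treg libraries the lowest, and no group overlapped another. Fosl2, which encodes Fra-2 and is known for more sustained expression, was at 45.1 and 49.6, 36.3 and 23.2, 7.74 and 7.40, and 12.7 and 8.65 CPM. Its highest values were in monoclonal Treg, and all 4 monoclonal libraries stood above all 4 polyclonal ones.

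The Jun family was more abundant per length, as given further on. Jun, the member that activates most strongly, was at 275 and 264 CPM for Treg and 654 and 595 CPM for non-Treg cells of the monoclonal strain, and 49.8 and 69.4 CPM for Treg and 119 and 48.2 CPM for non-Treg cells of the polyclonal strain. Junb, which can activate or restrain AP-1 targets and is known to be needed by effector Treg cells, was at 1614 and 1381, 917 and 719.9, 229.5 and 409.99, and 349 and 216 CPM. Jund, which many cells express without a stimulus, was at 649 and 592, 386 and 362, 181 and 362, and 203.5 and 215 CPM. Junb and Jund were highest in monoclonal Treg cells, whereas Jun was highest in the monoclonal non-Treg cells. Library A and library B of the polyclonal groups differed in opposite ways: Treg A was below Treg B for all 3 genes, and non-Treg A was above non-Treg B for Jun and Junb, so the polyclonal groups overlapped for Jun, Junb and Jund.

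Atf3, a stress-inducible member of the ATF/CREB family that pairs with Jun proteins, was close to absent in the polyclonal libraries. In the monoclonal strain it was at 33.2 and 44.2 CPM for Treg and 141 and 257 CPM for non-Treg cells. In polyclonal cells it rested on 3 and 3 reads in Treg (0.213 and 0.152 CPM) and 4 and 4 reads in non-Treg (0.253 and 0.258 CPM). It thus reached the 1 CPM needed for testing only in monoclonal libraries. Ier2, an immediate early gene whose product is nuclear and which is not an AP-1 subunit, was at 391 and 382 CPM for Treg and 364 and 272 CPM for non-Treg cells of the monoclonal strain, and 83.3 and 125 CPM for Treg and 153 and 129 CPM for non-Treg cells of the polyclonal strain. Its monoclonal libraries were all above its polyclonal ones.

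**Figure D1:**
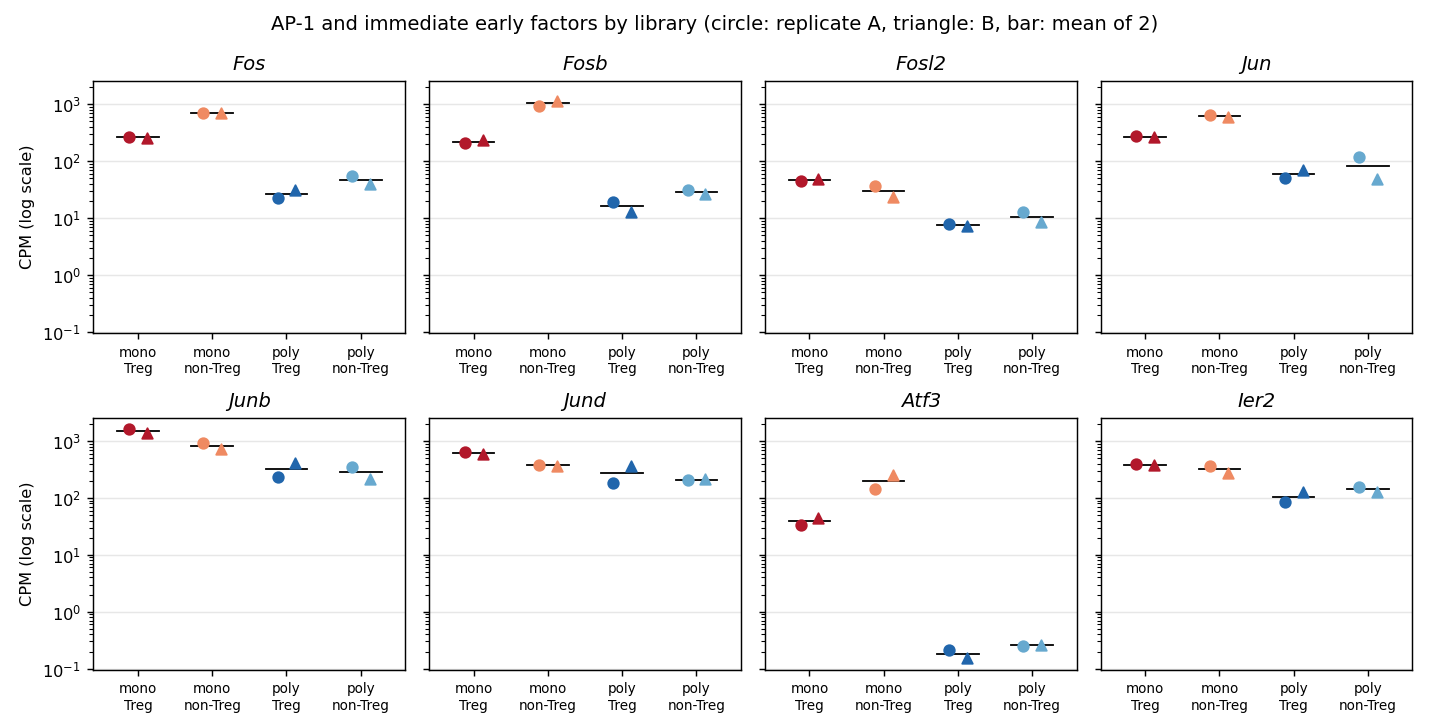
CPM (log axis) of the 8 genes in each of the 8 libraries, 1 panel per gene; points are libraries, coloured by group, and bars are group means. All 4 monoclonal points lie above all 4 polyclonal points in every panel except that of Jund, where monoclonal non-Treg B (362 CPM) does not exceed polyclonal Treg B (362 CPM).

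The first comparison asks how the strains differ within Treg cells. All 8 genes were higher in monoclonal than in polyclonal Treg, past an adjusted p of 0.05 in limma's moderated test on log2(CPM + 1); of the 12881 genes tested, 24.2% were called in either direction and 12.1% as higher. The median log2 difference of the 8 was 2.39, against -0.03 over all genes tested. Among the Fos family, Fosb was 13.2-fold higher (log2 3.72 ± 0.19 SE, adjusted p = 1.04e-08) and Fos 9.48-fold higher (3.24 ± 0.17, adjusted p = 1.47e-08). Fosl2 was 5.63-fold higher (2.49 ± 0.28, adjusted p = 1.89e-05). The Jun family moved less: Junb was 4.85-fold higher (2.28 ± 0.26, adjusted p = 7.64e-05), Jun 4.52-fold (2.17 ± 0.31, adjusted p = 0.000386) and Jund 2.41-fold (1.27 ± 0.22, adjusted p = 0.000987). Ier2 was 3.76-fold higher (1.91 ± 0.18, adjusted p = 3.78e-06). Atf3 reads were 220.2 times as frequent in monoclonal Treg, with a 95% exact binomial interval of 101 to 601 that covers counting error only; its log2 difference of 5.05 ± 0.35 (adjusted p = 1.30e-07) depends on the pseudocount of 1 CPM. Dendritic cell markers summed to 718 to 856 CPM against 137.7 to 194 CPM and class II genes to 4893 to 6575 CPM against 82.1 to 111 CPM in the same contrast. The sum of the T-cell markers was lower (4376 to 4445 CPM against 5067 to 6157 CPM), but the summed CD3 genes among them overlapped (1992 and 2006 against 1587 and 2235 CPM). The part of these shifts in the result was not tested. Without polyclonal Treg library A, the adjusted p of Jun was 0.1004 and 7 of the 8 were called.

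In non-Treg cells the same contrast of strains was larger for Fos, Fosb, Jun and Atf3 and smaller for the rest, by the values; the test of that difference is given further on. Here too all 8 genes were called higher in the monoclonal libraries, where 19.4% of all genes were called in either direction, 12.1% as higher and 7.35% as lower. The median log2 difference was 2.29, against -0.07 over all genes. Fosb was 35.1-fold higher (log2 5.13 ± 0.19, adjusted p = 1.28e-10), Fos 14.8-fold (3.89 ± 0.17, adjusted p = 9.05e-10) and Jun 8.13-fold (3.02 ± 0.31, adjusted p = 2.19e-05). Junb was 2.95-fold higher (1.56 ± 0.26, adjusted p = 0.00111), Fosl2 2.61-fold (1.39 ± 0.28, adjusted p = 0.00248), Ier2 2.23-fold (1.16 ± 0.18, adjusted p = 0.000311) and Jund 1.78-fold (0.83 ± 0.22, adjusted p = 0.0168). Atf3 reads were 761 times as frequent (386 to 1763, counting error only), and its log2 difference was 7.25 ± 0.35 (adjusted p = 2.08e-09). The dendritic cell list summed to 2492 to 2645 CPM against 146 to 152 CPM here, and the class II list to 18911 to 21188 CPM against 189 to 239.7 CPM, while T-cell markers summed to 3781 to 4031 CPM against 5996 to 6114 CPM; their part was not tested. All 8 calls held when libraries were scaled to the summed CD3 genes. That scale moved the median of all genes by 0.47, toward the calls already made, so it could hardly remove them. Calls over all genes there were 2652 higher and 130 lower, against 1558 and 947. Leaving out single libraries ended the calls of 2 genes: Fosl2 without monoclonal non-Treg A (adjusted p = 0.0678) or polyclonal non-Treg B (0.0555), and Jund without monoclonal non-Treg A (0.128) or B (0.0978) or polyclonal non-Treg A (0.109) or B (0.0724). With only the 4 non-Treg libraries fitted, Jun (0.0752) and Junb (0.0510) were not called, and without a filter on low genes Jund was not (0.0852).

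Within the monoclonal strain, Treg cells held less Fos, Fosb, Jun and Atf3 and more Junb and Jund than non-Treg cells. Thus 6 of the 8 were called, 4 lower and 2 higher, where 24.4% of all genes tested were called (10.8% higher and 13.6% lower). The median log2 difference over the 8 was -0.46, against -0.02 over all genes. Fos fell by 1.44 ± 0.17 on the log2 scale (adjusted p = 3.87e-05), Fosb fell by 2.23 ± 0.19 (adjusted p = 1.73e-06), Atf3 fell by 2.28 ± 0.35 (adjusted p = 0.000314) and Jun fell by 1.21 ± 0.31 (adjusted p = 0.0147). Junb rose by 0.88 ± 0.26 (adjusted p = 0.0313) and Jund by 0.73 ± 0.22 (adjusted p = 0.0293). Fosl2 (0.69, 95% interval 0.08 to 1.29, adjusted p = 0.0949) and Ier2 (0.30, -0.10 to 0.69, adjusted p = 0.272) were not called, though both Treg values lay above both non-Treg values. In this contrast the dendritic cell markers summed to 718 to 856 CPM for Treg and 2492 to 2645 CPM for non-Treg cells. Class II genes (4893 to 6575 against 18911 to 21188 CPM) and macrophage, B-cell and NK-cell markers were also lower in Treg, while plasma cell markers were higher. Neutrophil markers summed to 1422 and 260.3 CPM in Treg A and B and to 477 and 84.2 CPM in non-Treg A and B, so the groups overlapped. The part of other cells was not tested.

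The calls of this comparison were unequally firm. Fos, Fosb and Atf3 were called under each of 18 alternatives. Jun was not called without monoclonal Treg B (adjusted p = 0.0543), monoclonal non-Treg A (0.0760) or B (0.0649), polyclonal Treg A (0.141) or B (0.138), or without a filter (0.0544). Junb was not called with edgeR (0.0746) or DESeq2 (0.115), without a filter (0.0887), or without monoclonal Treg A (0.112) or B (0.0560), monoclonal non-Treg A (0.0502) or B (0.211) or polyclonal Treg B (0.0506). Jund was not called with edgeR (0.0764), without a filter (0.108), or without monoclonal Treg A (0.126) or B (0.0840) or monoclonal non-Treg A (0.111) or B (0.194). When libraries were scaled to the summed CD3 genes, which were at 1992 and 2006 CPM for Treg and 1470 and 1230.2 CPM for non-Treg cells of this strain, the median of all genes moved by -0.53, and Junb (0.31, adjusted p = 0.346) and Jund (0.16, adjusted p = 0.602) were no longer called. On that scale the 4 falls held, though a shift downward could hardly remove them. The calls over all genes there were 411 higher and 4427 lower, against 1396 and 1747 on the main scale.

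**Figure D2:**
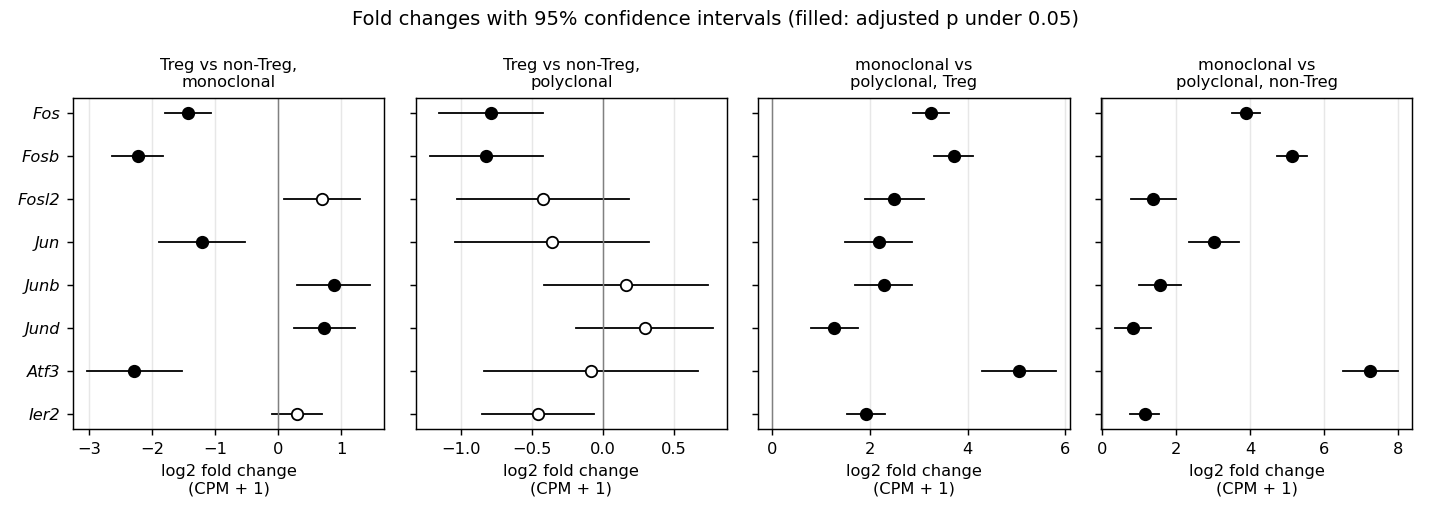
Log2 difference of log2(CPM + 1) for each gene in 4 comparisons, 1 panel each with its own axis; points are limma estimates, lines are 95% intervals, and filled points passed an adjusted p of 0.05. All 8 are filled and above 0 in both strain comparisons, while the monoclonal Treg against non-Treg panel spans -2.28 (Atf3) to 0.88 (Junb).

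In the polyclonal strain, Treg cells held less Fos and Fosb than non-Treg cells, and the other members were not called. These 2 of 8, both lower, compare with 7.9% of all genes called (4.63% higher and 3.28% lower). Dendritic cell markers summed to 137.7 to 194 CPM for Treg and 146 to 152 CPM for non-Treg cells, which overlap. Among them Flt3 (0.852 and 1.06 against 3.99 and 4.20 CPM), Itgax (8.45 and 2.13 against 10.4 and 10.9 CPM) and Siglech (1.49 and 0.558 against 10.9 and 7.42 CPM), chosen after their values were seen, were lower in Treg. Ccr9 (7.81 and 9.48 against 14.9 and 10.6 CPM) was also lower in Treg, as were Xcr1, Clec9a and Batf3, each at 1.81 CPM or less. Irf8 of the same list was higher in Treg (55.8 and 66.8 against 39.6 and 35.8 CPM), and Zbtb46, Bst2, Cst3 and Cd209a overlapped. The sums of class II genes (82.1 to 111 against 189 to 239.7 CPM) and of B-cell markers (28.9 to 46.5 against 46.8 to 69.6 CPM) were lower in Treg without overlap. Most of the B-cell sum was Cd22 (18.8 and 27.3 against 40.2 and 63.3 CPM), and Blk was also lower. Cd79a and Cd79b went the other way, with Cd79b at 8.03 and 15.5 against 2.03 and 1.87 CPM. The part of other cells was not tested. Fos fell by 0.79 ± 0.17 on the log2 scale (adjusted p = 0.00884) and Fosb by 0.82 ± 0.19 (adjusted p = 0.0121). Ier2 (-0.46, 95% interval -0.85 to -0.07, adjusted p = 0.177), Fosl2 (-0.42, adjusted p = 0.505) and Atf3 (-0.09, adjusted p = 0.957) had both Treg values below both non-Treg values without a call. For Atf3 this rested on 3 reads in each Treg library and 4 reads in each non-Treg library. The 3 Jun genes overlapped, with differences of -0.36 (-1.04 to 0.32) for Jun, 0.16 (-0.42 to 0.74) for Junb and 0.29 (-0.19 to 0.77) for Jund. Fos was not called without polyclonal non-Treg A (adjusted p = 0.187), without a filter (0.0555), on the CD3 scale (0.0721) or with only the 4 polyclonal libraries fitted (0.0824). Fosb was not called without polyclonal Treg B (0.0558) or polyclonal non-Treg A (0.155), nor on those 3 other settings (0.0702, 0.183 and 0.0987). Other members became calls when 1 library was left out: Jun at -1.004 without polyclonal non-Treg B (adjusted p = 0.0110), Jund at 0.79 without polyclonal Treg A (0.000323) and Ier2 at -0.75 without polyclonal Treg B (0.00908).

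Whether the gap between Treg and non-Treg cells differed between the strains was tested as the difference of the log2 differences, monoclonal minus polyclonal. Fosb and Atf3 passed, with a larger fall in monoclonal Treg cells. They were 2 of 8 members, where 9.2% of all genes were called (3.64% higher and 5.56% lower). For Fosb the difference was -1.41 ± 0.26 (adjusted p = 0.00404), and for Atf3 it was -2.20 ± 0.50 (adjusted p = 0.0130). Atf3 had 3 or 4 reads in each polyclonal library and passed the filter of 1 CPM only through its monoclonal libraries. At that level the pseudocount of 1 CPM keeps the polyclonal difference small (-0.09). The Atf3 call therefore largely restates the monoclonal fall (-2.28). It did not hold with edgeR (adjusted p = 0.333), DESeq2 (0.183) or a pseudocount of 0.25 CPM (0.0571). Neither gene was called without monoclonal non-Treg B (Fosb 0.0642 and Atf3 0.163). The 6 others were not called: Fos at -0.64 ± 0.24 (adjusted p = 0.116), Jun at -0.85 ± 0.44 (0.273), Fosl2 at 1.11 ± 0.40 (0.103), Junb at 0.72 ± 0.37 (0.275), Jund at 0.44 ± 0.32 (0.444) and Ier2 at 0.75 ± 0.26 (0.0878). Of these, Fos was called on the CD3 scale (-1.23, adjusted p = 0.0208) and without polyclonal Treg A (-0.87, 0.0150), Jun on the CD3 scale (-1.44, 0.0384) and without polyclonal non-Treg A (-1.49, 0.00588), and Jund (0.93) and Ier2 (1.04) without polyclonal Treg B. On the CD3 scale the calls over all genes were 85 higher and 1632 lower, against 469 and 716. Dendritic cell markers summed to 718 to 856 CPM for Treg against 2492 to 2645 CPM for non-Treg cells in the monoclonal strain. In the polyclonal strain they overlapped (137.7 to 194 against 146 to 152 CPM). The part of other cells in the difference was not tested. The same libraries enter this test and the comparisons above, so the results are not independent of each other.

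Set against gene length, Junb gave the most CPM per kilobase of transcript in every group. In monoclonal Treg the order was Junb (815 ± 89.5 CPM per kb, SD, n = 2), Ier2 (255 ± 4.26), Jund (216 ± 14.1), Fos (125 ± 1.56), Jun (84.5 ± 2.42), Fosb (58.4 ± 4.62), Atf3 (19.6 ± 3.94) and Fosl2 (8.08 ± 0.545), and no neighbours in it overlapped. Monoclonal non-Treg cells put Fos (339.5 ± 5.24) and Fosb (277 ± 45.6) directly after Junb (445 ± 75.7), ahead of Ier2 (209 ± 42.7), Jun (196 ± 13.1), Jund (130.2 ± 6.02), Atf3 (101 ± 41.5) and Fosl2 (5.07 ± 1.58). There Ier2 overlapped Jun, and Jund overlapped Atf3. Polyclonal Treg cells ran from Junb (174 ± 69.5) through Jund (94.6 ± 44.5), Ier2 (68.6 ± 19.4), Jun (18.7 ± 4.36), Fos (12.9 ± 2.90), Fosb (4.26 ± 1.20) and Fosl2 (1.29 ± 0.0411) to Atf3, with Jund overlapping both Junb and Ier2. In polyclonal non-Treg cells the order was Junb (154 ± 51.5), Ier2 (92.9 ± 10.8), Jund (72.9 ± 2.92), Jun (26.3 ± 15.7), Fos (22.7 ± 4.82), Fosb (7.62 ± 0.901), Fosl2 (1.82 ± 0.484) and Atf3, and only Jun and Fos overlapped.

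The balance of the Fos and Jun families is given as a description, without a test. The ratio of summed Fos family to summed Jun family CPM per kb was 0.159 and 0.187 for Treg and 0.6997 and 0.932 for non-Treg cells of the monoclonal strain, and 0.0850 and 0.0530 for Treg and 0.123 and 0.134 for non-Treg cells of the polyclonal strain. Monoclonal non-Treg libraries were thus the highest, and in both strains the Treg libraries were below the non-Treg ones. Junb over Jun per kb was 10.2 and 9.08 for Treg and 2.43 and 2.10 for non-Treg cells of the monoclonal strain, and 7.99 and 10.2 for Treg and 5.09 and 7.75 for non-Treg cells of the polyclonal strain. Jun made up 24.5% and 26.5% of the Jun family pool in monoclonal non-Treg and 5.88% to 12.5% in the other 6 libraries. Fosb made up 41.7% and 47.1% of the Fos family pool in monoclonal non-Treg and 17.4% to 31.7% elsewhere. The 8 genes together took 0.348% and 0.320% of reads for Treg and 0.412% and 0.411% for non-Treg cells of the monoclonal strain, and 0.0594% to 0.102% in the 4 polyclonal libraries.

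**Figure D3:**
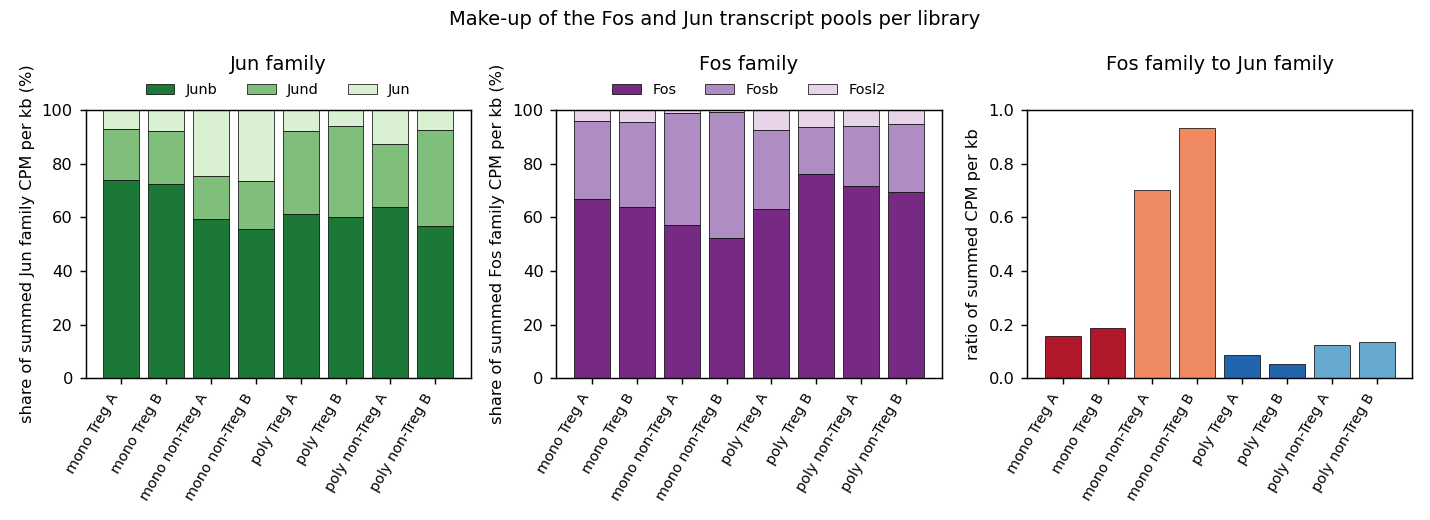
Shares of the summed CPM per kb of the Jun family (left) and Fos family (middle) by gene, in percent, and the ratio of the 2 sums (right), 1 bar per library. Monoclonal non-Treg bars show the largest Jun share (24.5% and 26.5%), the largest Fosb share and the highest ratio.

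Likeness between members over the 8 libraries was measured by Pearson's r of log2 values, as a description, since libraries share a group and a strain. Fos gave an r of 0.99 with Fosb, 0.98 with Jun and 0.98 with Atf3. Junb had an r of 0.95 with each of Jund, Fosl2 and Ier2, while Fosb with Jund gave 0.58. Among 10628 other genes, those most like Fos were Cbfa2t3 (r = 0.998), Cyp27a1 and Rasgrp3, and those most like Fosb were Wdfy4 (0.999), Anpep and Kynu. Atf3 was most like Lyn (0.998), Gm9733 and Rab30, and Jun was most like Ltbr (0.990), Cbfa2t3 and Tmem51. For Junb they were Mmp9 (0.978), Med31 and Ppp1r15a, for Jund Cmtm7 (0.994), Arf4 and Wars, for Fosl2 Gpr146 (0.979), Naaa and 1700096K18Rik, and for Ier2 Ppp1r15a (0.991), Naaa and Gp49a.

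Other genes of the pathway are given by their counts, beside the share of all genes called: 24.2% in the Treg strain contrast, 19.4% in the non-Treg strain contrast, 24.4% between monoclonal Treg and non-Treg, 7.9% in the polyclonal strain and 9.2% for the difference. In a list of 15 further AP-1 family genes, 13 were tested. Of these 3 rose and 0 fell in monoclonal against polyclonal Treg, and 3 rose and 1 fell in the non-Treg contrast. Between Treg and non-Treg cells 2 rose and 4 fell in the monoclonal strain, 2 rose and 0 fell in the polyclonal strain, and the difference between strains was called higher for 1 and lower for 2. Maf, which controls interleukin-10 in T cells, was at 225 CPM for Treg and 28.2 CPM for non-Treg cells of the monoclonal strain, and 248.9 CPM for Treg and 164 CPM for non-Treg cells of the polyclonal strain. It was 2.96 ± 0.16 (log2) higher in monoclonal Treg than non-Treg (adjusted p = 3.68e-08) and lower in monoclonal than polyclonal non-Treg, by a log2 difference of -2.51 ± 0.16. Batf3, which is also in the dendritic cell list, was at 10.8 and 50.8 CPM in monoclonal Treg and non-Treg, was listed at 0 in both polyclonal Treg libraries, and averaged 1.25 CPM in polyclonal non-Treg. Maff, a small Maf protein that lacks an activation domain, fell by 2.11 ± 0.43 in monoclonal Treg against non-Treg. Atf6, a factor of the unfolded protein response, was higher in monoclonal cells by 1.10 ± 0.18 in Treg and 2.25 ± 0.18 in non-Treg.

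Of 23 upstream kinases and factors, all tested, the calls were near or below those shares: 1 rose and 4 fell in the Treg strain contrast, 3 rose and 1 fell in the non-Treg strain contrast, 2 rose and 2 fell between monoclonal Treg and non-Treg, and 1 fell in the polyclonal strain, while the difference was called lower for 1. Mapk14, the p38 alpha kinase, fell by 1.27 ± 0.12 (log2) in monoclonal Treg against non-Treg (adjusted p = 6.90e-06) and was 1.18 ± 0.12 higher in monoclonal than polyclonal non-Treg. Itch, a ubiquitin ligase that targets Jun proteins, fell by 0.67 ± 0.14 in the first of these and was 0.73 ± 0.14 higher in the second. Among 6 NFAT and IRF genes, factors that bind beside AP-1, 0 rose and 2 fell in the Treg strain contrast, 2 rose and 2 fell in the non-Treg strain contrast, 0 rose and 1 fell between monoclonal Treg and non-Treg, and 1 rose and 1 fell in the polyclonal strain, while the difference was called higher for 1 and lower for 2. Irf8, which is also in the dendritic cell list, was 2.80 ± 0.24 higher in monoclonal than polyclonal non-Treg and fell by 1.74 ± 0.24 in monoclonal Treg against non-Treg. Irf4, a partner of AP-1 in lymphocytes, was 1.07 ± 0.16 higher in polyclonal Treg than non-Treg.

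In the strain contrasts 20 and 17 of the other immediate early genes tested were called, where 24.2% and 19.4% of all genes were. Of 28 such genes 27 were tested, and 15 rose and 5 fell in monoclonal against polyclonal Treg (median log2 0.84, against -0.03 over all genes), while 15 rose and 2 fell in the non-Treg contrast (median 0.59, against -0.07). Egr1, a zinc finger factor induced by the same kinases, was at 484 CPM for Treg and 1690 CPM for non-Treg cells of the monoclonal strain, and 133 CPM for Treg and 104 CPM for non-Treg cells of the polyclonal strain, and was 4.02 ± 0.14 (log2) higher in monoclonal than polyclonal non-Treg. Klf4 was 3.71 ± 0.40 higher in that contrast, and Ier3, which modulates cell survival, 3.66 ± 0.32. In Treg cells Ier3 was 5.02 ± 0.32 higher in the monoclonal strain. Some genes linked to receptor signals went the other way in Treg cells: Egr3 was lower by a log2 difference of -2.36 ± 0.20, and Nr4a3 averaged 0.127 CPM in monoclonal and 24.1 CPM in polyclonal Treg.

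Between Treg and non-Treg cells, 7 of the 27 rose and 8 fell in the monoclonal strain (median -0.02; 24.4% of all genes called), and 8 rose and 2 fell in the polyclonal strain (median 0.36; 7.9% of all genes called); the difference was called higher for 4 and lower for 9. Nr4a1, an orphan nuclear receptor induced by T-cell receptor signals, was at 286 and 698 CPM in monoclonal Treg and non-Treg and at 206 and 75.5 CPM in polyclonal Treg and non-Treg. It rose by 1.46 ± 0.17 in polyclonal Treg (adjusted p = 5.48e-05), and the difference between the strains was -2.75 ± 0.24 (adjusted p = 1.88e-05). Egr2, induced by receptor signals and linked to anergy, had a difference of -3.00 ± 0.30 (adjusted p = 4.71e-05).

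Of 22 genes known as AP-1 targets in lymphocytes, 18 were tested. In the strain contrasts 7 rose and 5 fell in Treg, and 5 rose and 6 fell in non-Treg, with medians of -0.10 and -0.21. Between Treg and non-Treg cells 5 rose and 3 fell in the monoclonal strain and 3 rose and 3 fell in the polyclonal strain, and the difference was called higher for 4 and lower for 2. Ccnd1, which encodes cyclin D1, was at 42.7 and 248.6 CPM in monoclonal Treg and non-Treg and at 1.81 and 4.38 CPM in their polyclonal counterparts. Ifng, the interferon gamma gene, was lower in monoclonal than polyclonal non-Treg by a log2 difference of -3.08 ± 0.51. Ctla4 and Il2ra, which mark Treg cells, were higher in Treg than non-Treg by 2.90 ± 0.13 and 2.88 ± 0.21 in the monoclonal strain and by 2.50 ± 0.13 and 4.14 ± 0.21 in the polyclonal strain. Of 71 calls of such listed genes taken by size over the 5 comparisons, 45 held under every alternative, and the log2 differences given here are from those.

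A list of 15 heat shock and handling genes, which also respond when cells are dissociated, summed to 1845 and 2312 CPM for Treg and 2134 and 2874 CPM for non-Treg cells of the monoclonal strain, and 2155 and 2830 CPM for Treg and 2217 and 2485 CPM for non-Treg cells of the polyclonal strain. Library B was above library A in all 4 groups, and the monoclonal and polyclonal ranges overlapped. Of 14 tested, 2 fell in the Treg strain contrast, 1 rose in the non-Treg strain contrast, 1 fell between monoclonal Treg and non-Treg, the difference was called lower for 1, and 0 were called by limma in the polyclonal strain, where 0 had an unadjusted p under 0.05 and 0 were called by edgeR or DESeq2. Hspa5, the chaperone of the endoplasmic reticulum, was 0.72 ± 0.12 higher in monoclonal than polyclonal non-Treg, and Hspd1, a mitochondrial chaperone, was lower in monoclonal than polyclonal Treg by a log2 difference of -0.89 ± 0.19.

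**Figure D4:**
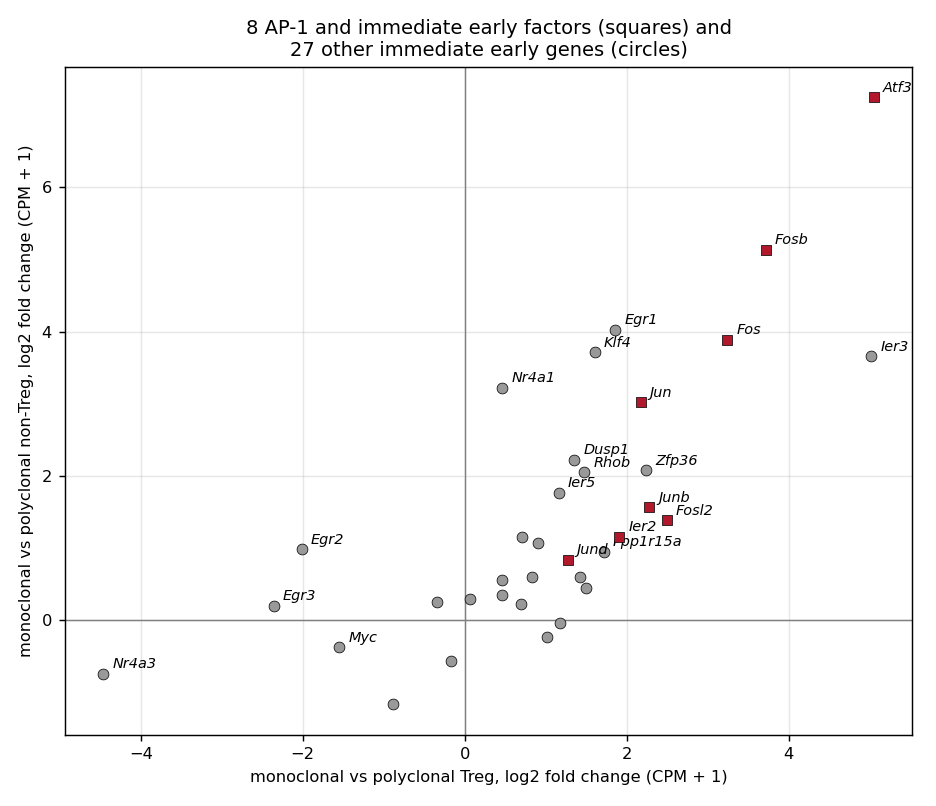
Log2 difference between monoclonal and polyclonal Treg (x axis) and non-Treg cells (y axis) for the 8 members and the 27 other immediate early genes tested; each point is 1 gene, and the axes share no library. The 8 members lie in the upper right, from Jund (1.27, 0.83) to Atf3 (5.05, 7.25), while Nr4a3 (-4.46, -0.75) and Egr3 (-2.36, 0.20) lie to the left.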

How the data were processed

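RNA from 8 spleen CD4+ T-cell libraries (poly-dT selected, strand kept, single-end, per the labels' protocols) was deposited as CPM per gene. Per the submitters' processing notes, the build was mm9 and the tools included the aligner STAR 2.4.1a, with HOMER 4.7 and edgeR; their settings are not given in the sources used here. The deposited CPM corresponded to whole read numbers (100% of values, within 0.01 read), which were recovered. log2(CPM + 1) was tested with limma 3.58.1 (trend, robust; R 4.3.3) over 12881 genes that reached 1 CPM in 2 or more libraries, the 8 libraries sharing 1 spread (4 residual degrees of freedom), with Benjamini-Hochberg adjustment and a threshold of 0.05 in 5 comparisons. Alternatives were other pseudocounts and filters, TMM factors, CD3 scaling, fits of only the groups compared, a replicate block, edgeR 4.0.16 and DESeq2 1.42.0 on recovered reads, and leaving out each library. The members, gene lists, motifs and tests were chosen with earlier results of these data known. Of each list, up to 3 called genes a comparison were named by size, with mean log2(CPM + 1) of at least 2; for each member, the 3 genes of highest r. Scripts were tested on simulated data. No member overlaps another gene model.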

Additional observations from a re-analysis of the deposited data

Results flagged for a closer look

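The gap between Treg and non-Treg cells differed between the monoclonal and polyclonal strains for Fosb, by -1.41 ± 0.26 on the log2 scale (limma, adjusted p = 0.00404), and for Atf3, by -2.20 ± 0.50 (adjusted p = 0.0130), in a test of the difference itself. Fosb lost the call in 1 of 17 alternatives, without monoclonal non-Treg B (adjusted p = 0.0642). Atf3 lost it in 4 of 17, and its polyclonal level rests on 3 or 4 reads a library. It passed the filter on low genes only through its monoclonal libraries, so its difference largely restates the monoclonal fall. The part of other cells in these differences was not tested. Groups of 2 libraries are too small to test for a library that stands apart.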

How the results depend on the processing

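Of the member fold changes under alternatives, 648 kept their direction and their side of the threshold, 46 lost a call, 10 gained one and 7 changed sign. In monoclonal Treg against non-Treg the 6 calls became 3 without a filter, and 3 to 6 without 1 library. In the polyclonal strain the 2 calls became 0 without a filter, 0 on the CD3 scale, 0 with only the groups compared, and 0 (without polyclonal non-Treg A) to 3 without 1 library. For the difference between strains the 2 calls became 1 with a pseudocount of 0.25 CPM, 1 with edgeR, 1 with DESeq2, 4 on the CD3 scale, and 0 (without monoclonal non-Treg B) to 4 (without polyclonal Treg B) without 1 library. The 8 calls between strains ranged from 7 to 8 in Treg and from 6 to 8 in non-Treg. The cause was not tested. On the CD3 scale Ier2 changed sign in monoclonal Treg against non-Treg (-0.27) and Jund in the difference (-0.15). Without 1 library, the polyclonal difference ran from -1.004 to 0.28 for Jun, -0.26 to 0.58 for Junb and -0.21 to 0.79 for Jund, and the difference between strains from -0.061 to 0.93 for Jund. An arm left with 1 library was assumed to vary like the others.

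Of the counts over the gene lists and all genes, 513 stayed within 1.5 times and 110 did not. On the CD3 scale all-gene calls were 4838 against 3143 in the monoclonal strain, 562 against 1018 in the polyclonal strain and 1945 against 3116 between strains in Treg. On recovered reads edgeR called 2602 genes in the monoclonal strain, 916 in the polyclonal strain, 947 for the difference, and 2639 in Treg and 1975 in non-Treg between strains. Calls between monoclonal Treg and non-Treg were 1879 without monoclonal non-Treg A and 1306 without B, against 3143; in the polyclonal strain they were 469 without non-Treg A and 429 without B, against 1018.

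With a replicate block by letter the member counts were 6, 2, 2, 8 and 8, as without it, and no member's call changed. Over 12881 genes, deviations of same-lettered Treg and non-Treg libraries had an r of 0.0969 in the monoclonal and 0.0752 in the polyclonal strain. Between groups of different strains r was -0.0930 to 0.0112. The letters were not taken to pair the libraries, although heat shock genes summed higher in B and neutrophil markers higher in A in all 4 groups. Depth limits Atf3, at 3 or 4 reads in each polyclonal library.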
